A study of Mus musculus with 92 samples.

Results

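The experiment described here followed a single Adar1 KO line, the one made with the study's second guide against Adar (sgRNA 2), from ER-Hoxb8 progenitors to ER-Hoxb8 macrophages. Its libraries were chosen by sample title: 5 of sgRNA 2 macrophages after 7 days in vitro and 3 of sgRNA 2 progenitors, together 8 of the 92 bulk RNA sequencing libraries of the series. The study made ER-Hoxb8 cells to replace microglia, and used Adar1 KO as a model of Aicardi-Goutières syndrome, an interferonopathy.

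ER-Hoxb8 cells are bone marrow progenitors that a fusion of Hoxb8 with an estrogen receptor domain holds immature as long as estrogen is present. The cells of all groups used here carried 1 allele of Cas9 and were transduced with a guide, so that each line is a pool of edited cells and not a clone. Progenitors were kept in RPMI with estradiol and GM-CSF; macrophages had been moved to DMEM with serum and M-CSF for 7 days. Estrogen withdrawal, the change of growth factor, the change of medium and adherence therefore came together, and cannot be told apart in any difference below. No drug was given to these cells (treatment N/A). The control line carried a non-targeting guide (NTC; 3 libraries of progenitors and 3 of macrophages), and the other Adar1 KO line carried sgRNA 1 (3 and 3); both were grown in the same media for the same time. The library names of the NTC progenitors and macrophages do not share a single prefix. Whether all came from the same preparation is not stated. The labels do not say whether replicates were separate cultures or separate libraries of 1 culture, so the p-values may measure technical spread.

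Adar encodes ADAR1, which turns adenosine into inosine in double-stranded RNA and is itself induced by interferon. Without it, unedited cellular RNA can be bound by sensors such as MDA5, encoded by Ifih1, whose signalling through MAVS switches on the type I interferon genes; interferon then acts through JAK kinases, STAT2 and IRF9 on the interferon-stimulated genes (ISGs). Myeloid progenitors that become macrophages leave the cell cycle, shut off granule protease genes and take up the M-CSF receptor, lysosomal and phagocytic genes.

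Values are CPM, counts per M (mega, 1e6) scaled between libraries by the authors, rebuilt from the log2 values they deposited; CPM are not divided by transcript length, so levels are compared between samples and not between genes. The effective library size, which is depth times the authors' scaling factor, was estimated for each library. It was 25.9, 28.5 and 26.4 M counts in progenitors and 18.0, 17.2, 25.5, 23.3 and 21.5 M counts in macrophages. These sizes include the scaling and do not show which group was sequenced more deeply. A gene with no count in any library of a group was given the level of 3 counts, 0.112 CPM over the progenitors and 0.145 CPM over the macrophages, which covers counting error only. A change is a log2FC, the mean deposited log2 value of macrophages minus that of progenitors, with its SE. Of 29956 named genes, 18791 had a count in 1 or more of these libraries, and 10698 had over 1 CPM in at least 3 libraries and were tested.

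Macrophage replicate 2 stood apart from the other 4 more often than any other macrophage library did. Of the genes tested, 699 (6.53%) had 1 macrophage library separated from the rest by a gap past Dixon's limit, which chance alone passes in about 1 of 20 groups; it was replicate 2 for 290, replicate 1 for 161, replicate 4 for 98, replicate 5 for 87 and replicate 3 for 63. Irf8, a transcription factor of monocytes and macrophages, had 267 CPM in replicate 2 and 90.2, 165, 170.2 and 166 CPM in the others, and its log2FC was 3.13 with and 2.95 without replicate 2. Mcm6, a subunit of the replication helicase, had 126 CPM there and 43.1, 69.7, 72.4 and 72.1 CPM in the others (log2FC -2.29 with and -2.49 without). H2-D1, Cmpk2 and Fth1 were highest in replicate 2 as well. For these 5 genes the gap was not past that limit.

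Adar itself had 20.3, 23.5 and 20.4 CPM in the 3 progenitor libraries and 129, 128, 130.1, 131 and 127 CPM in the 5 macrophage libraries. The macrophages lay above the progenitors without overlap, by a log2FC of 2.59 (SE 0.06, limma adjusted p = 3.87e-11). The guide edits DNA and the mRNA of an edited gene need not fall, so this level does not check the editing. On the scale shared with the control line, NTC macrophages had 54.1, 64.2 and 50.04 CPM and NTC progenitors 18.4, 10.2 and 19.2 CPM; the macrophage minus progenitor change was 2.57 in the sgRNA 2 line and 1.86 in NTC, a difference of 0.71 (SE 0.25, limma adjusted p = 0.0305). A gene was called differentially expressed (a DEG) when its log2FC was 2 or more, or -2 or less, and its adjusted p was below 0.05. The same limits were set for a difference of changes, and Adar did not reach them.

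Between progenitors and macrophages of the Adar1 KO sgRNA 2 line, ISGs rose, many from about 1 CPM to over 100 CPM: Usp18, the protease that removes ISG15 from proteins, had a log2FC of 9.00 (SE 0.05). Macrophage genes rose with them, among them the M-CSF receptor Csf1r (6.29, SE 0.06) and the lysosomal protease genes Ctsb (5.98, SE 0.05) and Ctsd (4.80, SE 0.07). Granule protein genes of immature myeloid cells fell, among them Mpo (-9.21, SE 0.13), and so did genes of mitosis such as Plk1 (-3.72, SE 0.07) and of ribosome biogenesis such as Ncl (-3.21, SE 0.05). These values compare 5 macrophage with 3 progenitor libraries. Of the genes tested, 2064 (19.3%) were DEGs, 1250 higher in macrophages (11.7%) and 814 lower (7.61%). The counts called in each list below are to be read against these shares. The 5 macrophage libraries lay all above or all below the 3 progenitor libraries for 2050 of the DEGs, which were called for a large difference, and for 8295 (77.5%) of all genes tested; the adjusted p was below 0.05 for 81.3% of all genes tested. The median log2FC over all genes tested was -0.03, and without macrophage replicate 2 the DEGs numbered 2068.

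The split depends on how libraries are scaled, because the rebuilt CPM of the macrophages summed to 1057873 to 1074167 and those of the progenitors to 809367 to 836175. In the macrophages, 32.8% to 33.9% of that sum lay in the 50 most abundant genes, against 13.8% to 14.2% in the progenitors. With each library scaled to its own sum, the median over all genes tested moved to -0.40, and 44.5% of 2283 DEGs were higher in place of 60.6%. No list median described below changed sign under that scaling, under centring or under quantile normalization.

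**Figure D1:**
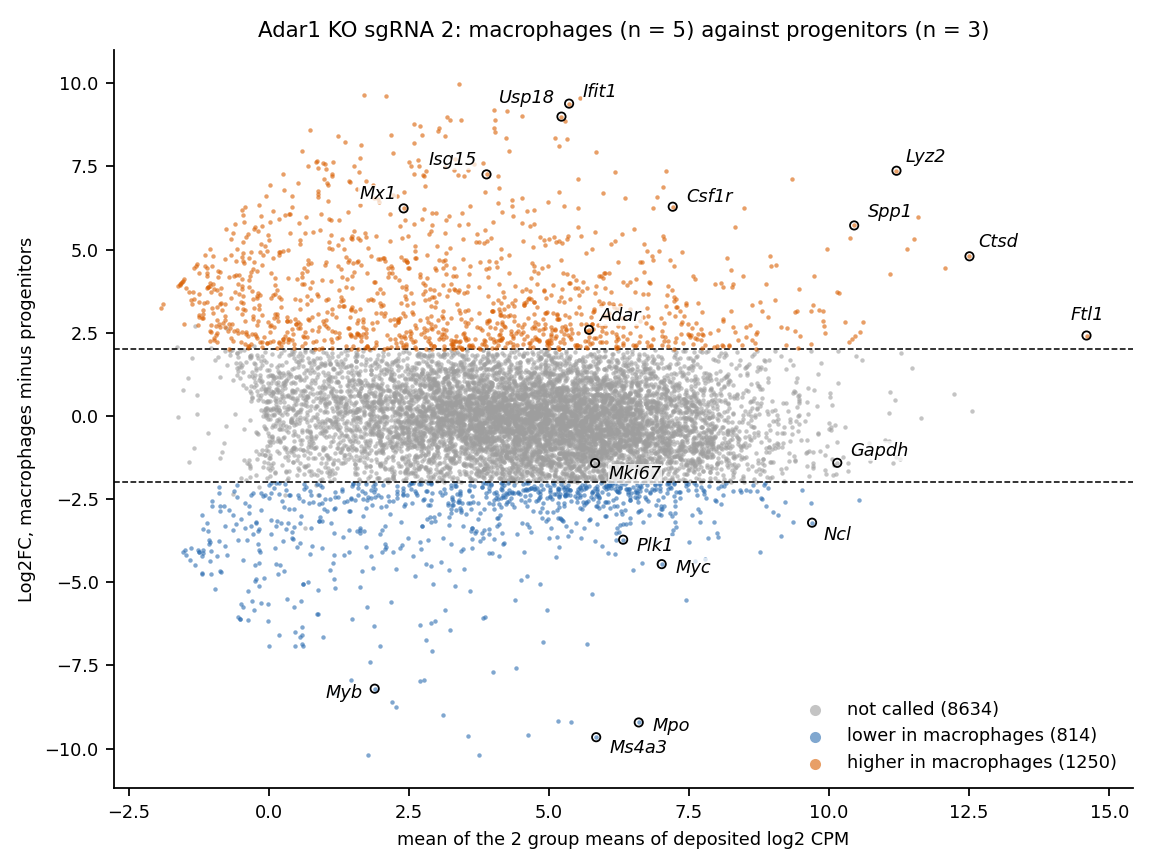
Log2FC of sgRNA 2 macrophages against progenitors (y axis) against the mean of the 2 group means of deposited log2 CPM (x axis) for the 10698 genes tested. Orange points are the 1250 DEGs higher in macrophages, blue points the 814 lower, grey points the rest; dashed lines mark a log2FC of 2 and -2, and labelled genes are described in the text.

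The label of the cells was checked against markers. All 13 genes of the macrophage identity list, a list of genes the study plots, so that their direction is not independent evidence, had higher values in all 5 macrophage libraries than in any progenitor library, against 77.5% of all genes tested without overlap. All 13 had an adjusted p below 0.05 in limma and 8 were DEGs, and the median log2FC of the list was 3.40. Csf1r had 17.1, 16.7 and 16.2 CPM in the 3 progenitor libraries and 1194, 1316, 1361, 1264 and 1429 CPM in the 5 macrophage libraries. Every macrophage library was far above every progenitor library. Trem2, a lipid-sensing receptor of microglia and macrophages, had 12.6, 10.0 and 9.14 CPM in progenitors and 1787, 1681, 1773, 1663 and 1777 CPM in macrophages (7.36, SE 0.09). Emr1, which encodes F4/80, rose by 5.24 (SE 0.05), the scavenger receptor gene Msr1 by 8.36 (SE 0.11) and the endosomal glycoprotein gene Cd68 by 3.19 (SE 0.03). The 5 that were not DEGs were Cd14 (1.97), Mertk (1.496), Tlr4 (0.50), Aif1 (1.57) and Ptprc (1.55). Aif1, which encodes IBA1, stayed at 3.40 to 5.49 CPM in macrophages. The adaptor gene Tyrobp, the transcription factor gene Cebpa and the complement inhibitor gene Serping1 were listed at 0 in all 8 libraries; genes in common use, such as the respiratory chain gene Ndufa4, were near 0 as well, so these entries are not read as absence.

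Of 14 growth factor and cytokine receptor genes tested, 6 rose and 1 fell. Over all genes tested, 11.7% were called higher and 7.61% lower. With libraries scaled to their sums 4 rose, without Il6ra (1.96) and Ifngr2 (1.91), and quantile normalization gave 5 and 2. Besides Csf1r, the GM-CSF receptor subunit gene Csf2ra (2.96), Csf2rb2 (3.22), Csf3r (4.46) for G-CSF, Il6ra (2.33) and Ifngr2 (2.28) rose. Csf2rb, the other subunit gene of the GM-CSF receptor, was not called (0.13). Flt3, a receptor of early progenitors, fell (-3.72). Esr1, the estrogen receptor gene, had 8.41, 17.8 and 13.1 CPM in the 3 progenitor libraries and 6.50, 3.81, 5.93, 6.78 and 4.06 CPM in the 5 macrophage libraries, and Hoxb8 4.63, 9.07 and 5.34 CPM against 1.97, 1.34, 3.37, 2.69 and 2.49 CPM; neither was a DEG (log2FC -1.24 and -1.39). The counting did not separate transcripts of the transgene from those of the endogenous genes.

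Of 24 myeloid transcription factors tested, 11 rose and 3 fell, against 11.7% called higher and 7.61% called lower over all genes tested. Their median log2FC was 1.90. With libraries scaled to their sums 7 rose, when Tfeb (1.91) was not called, and 9 rose with quantile normalization. The macrophage factor gene Irf5 (3.65, SE 0.10), the lysosome and pigment cell factor genes Mitf (3.50, SE 0.08) and Tfeb (2.28, SE 0.13), and Id2 (5.25, SE 0.20), an inhibitor of helix-loop-helix factors, were among those that rose. Spi1, the gene of PU.1, had 10.9, 11.2 and 13.1 CPM in the 3 progenitor libraries and 24.7, 41.6, 32.6, 36.4 and 37.6 CPM in the 5 macrophage libraries; macrophages were higher without overlap, at a log2FC of 1.54 that was not called. Gfi1, a factor of granulocyte development, had 6.76, 10.7 and 7.82 CPM in progenitors and 0, 0, 0, 0.0394 and 0.200 CPM in macrophages (-6.16, SE 0.44), and Runx3 (-3.84) and Tfec (-5.35) fell too. 

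Progenitor genes were called lower for 6 of the 10 that could be tested of 21 listed, and higher for 1. Myc, the growth-promoting transcription factor, had 620.5, 609.5 and 586 CPM in the 3 progenitor libraries and 25.9, 29.6, 27.8, 25.1 and 29.5 CPM in the 5 macrophage libraries (-4.45, SE 0.06). Myb, which maintains immature blood cells, had 59.1, 71.9 and 60.3 CPM in progenitors and at most 0.164 CPM in macrophages (-8.20, SE 0.19), and the Myc relative Mycn fell too (-7.92, SE 0.21). Lmo2, a partner of blood stem cell transcription factors, rose (2.00, SE 0.13) at the limit of the call; it was not a DEG once libraries were centred on their medians, nor without progenitor replicate 1 (1.85) or 3 (1.98) or macrophage replicate 5 (1.99). Kit, the receptor for stem cell factor, had only 6.92, 3.41 and 5.15 CPM in progenitors and 1.48, 1.94, 1.24, 2.94 and 1.00 CPM in macrophages (-1.58, not called). Of the other 11, Cd34, Gata2, Hoxa9, Meis1 and 6 more stayed under the filter and Spink2 was at the lowest value in every library. In bulk RNA, fewer cells of a type and less RNA per cell cannot be told apart, here and in every list below.

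Markers of other blood cells were followed in every library. Of 20 neutrophil granule and S100 genes, 12 could be tested, 7 fell and 1 rose, at a median log2FC of -5.57. Their summed level was 6530.4, 5913 and 6477 CPM in progenitors and 82.5, 81.7, 84.2, 81.0 and 87.7 CPM in macrophages. Mpo, the peroxidase of primary granules, had 2405, 2124 and 2609.9 CPM in the 3 progenitor libraries and 4.44, 3.83, 3.35, 3.36 and 4.75 CPM in the 5 macrophage libraries. No macrophage library came near the progenitors. The granule protease genes Elane (-8.98, SE 0.39), Prtn3 (-9.22, SE 0.13) and Ctsg (-9.17, SE 0.19) fell to a like degree, as did Ms4a3 (-9.66, SE 0.11), a membrane protein of granulocyte and monocyte progenitors. The secondary granule and late neutrophil genes Ltf, Camp, Cxcr2, Ly6g and S100a9 stayed under the filter, and Padi4 was at the lowest value in all 8. Mmp9, a gelatinase that macrophages make too, rose (7.45, SE 0.21).

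Monocyte genes went both ways, with 3 of 9 tested higher (Treml4, Cx3cr1 and Ccr2) and 3 lower (F13a1, Plac8 and Spn), and they summed to 1944, 1771 and 1842 CPM in progenitors and 522, 604, 604, 525 and 653 CPM in macrophages. F13a1, the gene of coagulation factor XIII, had a log2FC of -3.64 (SE 0.08) and the fractalkine receptor gene Cx3cr1 one of 4.31 (SE 0.10). Ccr2, the receptor that draws monocytes to tissue, had 3.14, 4.11 and 3.07 CPM against 8.85, 17.3, 14.2, 12.8 and 18.8 CPM (2.00), and was no longer called once libraries were centred on their medians, nor without progenitor replicate 1 (1.94) or 3 (1.93) or macrophage replicate 2 (1.92), 3 (2.00, just under 2) or 5 (1.89). Of 13 dendritic cell genes, 4 could be tested; Bst2 (3.65), also an ISG, and Itgax (4.91) rose and Flt3 fell, while Clec9a and Ccr7 were at the lowest value in all 8 libraries. They summed to 47.9, 44.2 and 46.0 CPM in progenitors and 487, 469, 502, 509 and 546 CPM in macrophages. That sum came mostly from Bst2 in every library. 

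Mast cell and basophil genes summed to 7.13, 7.35 and 7.08 CPM in progenitors and 0.925, 1.47, 1.22, 2.44 and 1.26 CPM in macrophages. Only Ms4a2, a subunit of the IgE receptor, could be tested of 11, and it fell (-5.84, SE 0.36); Fcer1a and Mcpt4 were at the lowest value in all 8 libraries. None of 15 lymphocyte genes and none of 12 erythroid and megakaryocyte genes passed the filter. Lymphocyte genes summed to 0.849, 0.69 and 0.477 CPM in progenitors and 0.958, 0.636, 0.693, 1.46 and 0.857 CPM in macrophages. Cd3e and Ncr1 were among those at the lowest value throughout. Erythroid genes summed to 2.04, 1.83 and 2.05 CPM and 2.13, 1.49, 2.22, 1.55 and 1.77 CPM. Of these, Car1 was at the lowest value in all 8. 

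**Figure D2:**
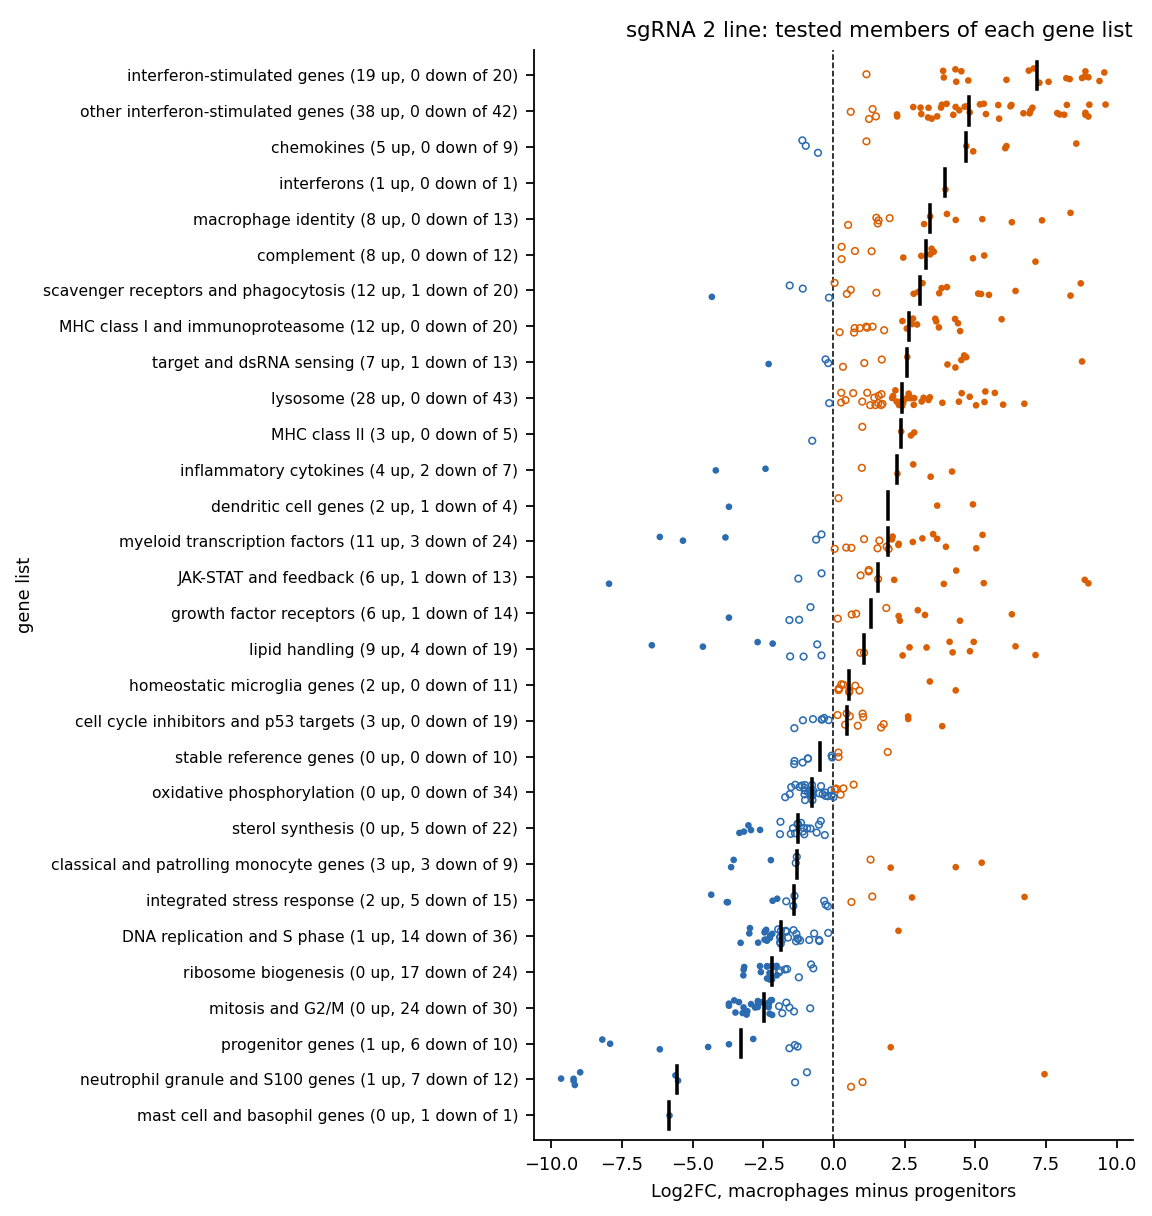
Log2FC of sgRNA 2 macrophages against progenitors (x axis) for the tested members of the gene lists (y axis, with the number called higher, called lower and tested). Filled points are DEGs, open points are not, vertical ticks are list medians and the dashed line is the median of -0.03 over all 10698 genes tested; ISG lists lie farthest right and, of lists with over 1 tested gene, neutrophil granule genes farthest left.

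ISGs rose steeply. Of the 20 ISGs that the study displays for these samples, a choice that makes their direction no independent evidence, 19 rose and none fell, at a median log2FC of 7.16 against -0.03 over all genes tested. Together they had 179.5, 179.8 and 181 CPM in progenitors and 9528, 10097, 9435, 9547 and 10398 CPM in macrophages. Ifit1, whose product binds foreign 5′ RNA ends, had 1.82, 1.30 and 1.44 CPM in the 3 progenitor libraries and 1036, 1105, 1024, 1019 and 1146 CPM in the 5 macrophage libraries (9.39, SE 0.09). Isg15, the ubiquitin-like modifier, had 0.932, 1.29 and 1.137 CPM in the 3 progenitor libraries and 167, 189, 176, 181 and 205 CPM in the 5 macrophage libraries (7.26, SE 0.11). Both genes were under 2 CPM in every progenitor library and above 100 CPM in every macrophage library. Ifit3 (9.56, SE 0.10), the antiviral enzyme gene Rsad2 (8.89, SE 0.35) and Irf7 (8.87, SE 0.20), the transcription factor that amplifies interferon production, rose by similar amounts. The chemokine gene Cxcl10 was the exception, with 3.12, 2.32 and 2.30 CPM in the 3 progenitor libraries and 5.29, 5.04, 5.67, 5.55 and 7.53 CPM in the 5 macrophage libraries (1.15, not called). 

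A further list of 48 ISGs had 42 members tested, and 38 of these rose and none fell, at a median log2FC of 4.76. Mx1, a dynamin-like antiviral GTPase, had 0.595, 0.54 and 0.451 CPM in progenitors and 47.2, 47.7, 43.2, 47.1 and 45.2 CPM in macrophages (6.24, SE 0.11). The list's steepest rises were those of Cmpk2, a mitochondrial nucleotide kinase (9.61, SE 0.35; 9.44 without macrophage replicate 2), Oasl2 (9.03, SE 0.18) and the helicase gene Ddx60 (9.00, SE 0.21). Not called were Gbp7 (1.24), Trim25 (1.48), Pml (0.59) and Nlrc5 (1.36). Ifi205 stayed under the filter, and 5 members with newer Ifi names were not in the table. Reads of near-identical copies, such as Ifit3 and its tandem copy, Oas1a and Oas1g, or Mx1 and Mx2, may have been split between entries, so single values of those genes are uncertain.

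**Figure D3:**
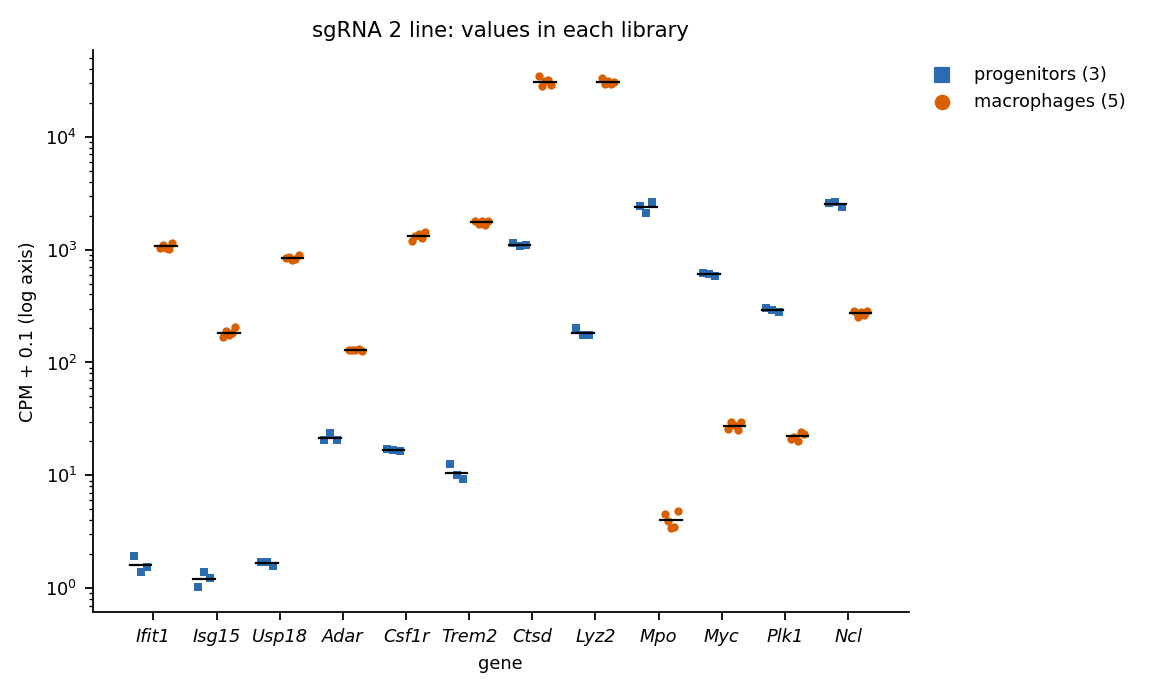
CPM of 12 genes in each of the 3 progenitor (squares) and 5 macrophage (circles) libraries of the sgRNA 2 line, on a log axis of CPM + 0.1. Horizontal bars are group means of that log value; no gene shown has overlapping groups, with ISGs and lysosomal genes higher in macrophages and Mpo, Myc, Plk1 and Ncl lower.

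Because many ISGs and lysosomal genes rose and many replication and granule genes fell, RefSeq promoters (GRCm38.p6, 250 bases before to 50 after the start) were searched on both strands for the letters of 4 motifs. These were the ISRE bound by STAT2 and IRF9 (GAAANNGAA), the E2F motif (TTTGGCGC or TTTCCCGC), the CLEAR motif of lysosomal genes (TCACGTGA) and the PU.1 motif (GAGGAAGT). The ISRE letters were in 8.56% of all 32851 promoters, the E2F letters in 1.56%, the CLEAR letters in 0.974% and the PU.1 letters in 3.20%. Counted per gene with at least 1 promoter entry, those shares were 9.76%, 1.80%, 1.12% and 3.69%. Of the study's ISGs, 15 had an entry and 11 of these held the ISRE letters; of the other ISGs, 36 had an entry and 21 held them. E2F letters were found for 10 of 29 replication and S phase genes with an entry, CLEAR letters for 8 of 33 lysosome genes and PU.1 letters for 6 of 18 neutrophil granule genes. Matches were not limited to these lists. E2F letters were found for 1 of 25 mitosis and G2/M genes, and ISRE letters for 11 of 20 interferon genes. PU.1 letters were found for 4 of 20 ribosome biogenesis genes and 3 of 12 monocyte genes. Cmpk2 and Irf7 held no match in this window.

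Shown as examples, chosen after the matches were seen, are ISG promoters with several ISRE matches and 1 promoter for each of the other motifs, with the letters of the motif named for each in capitals. Adar has 3 promoter entries, and only the one printed, at chr3:89730468-89730767, holds the ISRE letters; there, 1 of its 2 ISRE matches shares a base with a PU.1 match. Ifit1 lies at chr19:34640639-34640938, Ifit3 at chr19:34583279-34583578 and Isg15 at chr4:156200769-156201068, and each holds 3 ISRE matches, which may overlap. The replication helicase gene Mcm5 is at chr8:75109259-75109558 with its E2F match, Ctsd at chr7:142387778-142388077 with its CLEAR match and Mpo at chr11:87793534-87793833 with its PU.1 match. Isg15 and Ctsd lie on the reverse strand and the others on the forward strand, and all are written 5′ to 3′ along the gene. A match is a description of letters, not of binding.
Adar: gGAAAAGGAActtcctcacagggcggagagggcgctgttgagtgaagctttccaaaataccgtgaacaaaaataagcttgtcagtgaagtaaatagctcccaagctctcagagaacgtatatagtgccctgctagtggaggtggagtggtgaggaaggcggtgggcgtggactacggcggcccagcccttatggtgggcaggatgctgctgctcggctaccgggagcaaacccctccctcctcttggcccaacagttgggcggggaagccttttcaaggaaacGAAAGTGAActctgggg
Ifit1: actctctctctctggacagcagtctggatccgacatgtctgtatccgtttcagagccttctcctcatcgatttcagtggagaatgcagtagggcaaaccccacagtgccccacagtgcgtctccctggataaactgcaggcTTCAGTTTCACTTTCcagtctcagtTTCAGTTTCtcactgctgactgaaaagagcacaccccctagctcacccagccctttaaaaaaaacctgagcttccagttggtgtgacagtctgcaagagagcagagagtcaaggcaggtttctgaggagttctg
Ifit3: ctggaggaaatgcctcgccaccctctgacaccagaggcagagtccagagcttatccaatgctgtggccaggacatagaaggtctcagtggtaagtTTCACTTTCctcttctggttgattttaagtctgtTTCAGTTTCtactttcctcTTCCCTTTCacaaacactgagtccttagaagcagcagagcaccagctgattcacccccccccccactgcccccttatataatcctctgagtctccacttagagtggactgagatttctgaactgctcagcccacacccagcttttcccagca
Isg15: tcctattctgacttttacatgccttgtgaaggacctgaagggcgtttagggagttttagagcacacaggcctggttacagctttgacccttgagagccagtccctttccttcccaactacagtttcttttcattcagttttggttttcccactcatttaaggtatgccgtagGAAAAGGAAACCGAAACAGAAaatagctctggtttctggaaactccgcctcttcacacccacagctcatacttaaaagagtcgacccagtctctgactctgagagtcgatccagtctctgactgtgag
Mcm5: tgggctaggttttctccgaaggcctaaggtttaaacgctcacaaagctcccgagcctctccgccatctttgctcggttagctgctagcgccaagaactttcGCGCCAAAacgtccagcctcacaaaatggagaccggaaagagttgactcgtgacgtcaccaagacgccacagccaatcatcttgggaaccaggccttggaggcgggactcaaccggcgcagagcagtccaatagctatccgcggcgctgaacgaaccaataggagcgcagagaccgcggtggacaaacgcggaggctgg
Ctsd: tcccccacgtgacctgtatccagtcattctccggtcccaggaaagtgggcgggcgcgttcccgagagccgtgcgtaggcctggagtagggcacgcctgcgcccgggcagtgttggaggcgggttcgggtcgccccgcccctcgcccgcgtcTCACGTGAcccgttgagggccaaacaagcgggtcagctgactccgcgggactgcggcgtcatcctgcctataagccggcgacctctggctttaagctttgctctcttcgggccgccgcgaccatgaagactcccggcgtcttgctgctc
Mpo: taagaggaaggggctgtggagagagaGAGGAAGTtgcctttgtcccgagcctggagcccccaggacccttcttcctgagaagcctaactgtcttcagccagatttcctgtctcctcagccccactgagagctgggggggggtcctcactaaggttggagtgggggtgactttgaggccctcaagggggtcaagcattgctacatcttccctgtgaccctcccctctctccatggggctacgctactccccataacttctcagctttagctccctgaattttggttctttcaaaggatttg

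Upstream of the ISGs, transcripts of interferon itself were scarce. Ifnb1, the gene of interferon beta, was the only 1 of 20 interferon genes that could be tested; it was at the lowest value in all 3 progenitor libraries and had 0.94, 1.45, 1.23, 1.38 and 1.15 CPM in macrophages, at least 11.0-fold higher (limma adjusted p = 2.5e-07). Of the rest, Ifna15, Ifne, Ifng, Ifnl2 and Ifnl3 were at the lowest value in all 8 libraries and the other 14 stayed under the filter. The whole list summed to 0.117, 0.153 and 0.114 CPM in progenitors and 2.65, 3.20, 2.74, 3.24 and 3.13 CPM in macrophages.

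The pathway that interferon signals through rose in part, with 6 of 13 JAK-STAT and feedback genes higher and 1 lower. With quantile normalization, or with libraries scaled to their sums, 5 were called higher. Stat2 had 22.8, 23.9 and 22.5 CPM in the 3 progenitor libraries and 431, 497, 452, 450.1 and 492 CPM in the 5 macrophage libraries (4.32, SE 0.05), and Irf9, its DNA-binding partner, 4.40, 4.77 and 5.00 CPM in progenitors and 181, 191, 189, 186 and 197 CPM in macrophages (5.30, SE 0.06). Jak2, a kinase of the GM-CSF and interferon gamma receptors, rose (2.13, SE 0.22) but was not called without progenitor replicate 1 (1.79). Cish, which GM-CSF signalling induces through STAT5, fell from 114, 105 and 90.7 CPM to 0.582, 0.521, 0.393, 0.292 and 0.0793 CPM (-7.96, SE 0.41). The receptor genes Ifnar1 (0.62) and Ifnar2 (0.78) were not called. 

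Of 13 genes of the Adar and double-stranded RNA sensing list, 7 rose and 1 fell (median log2FC 2.59). The sensor genes Ifih1 (4.29, SE 0.07), Ddx58 (4.68, SE 0.07), which encodes RIG-I, and Zbp1 (8.77, SE 0.09), which binds Z-form nucleic acid as the long form of ADAR1 does, are ISGs as well. Zbp1 had 0.204, 0.233 and 0.18 CPM in the 3 progenitor libraries and 124, 129, 124, 123 and 134 CPM in the 5 macrophage libraries. Ripk3, the kinase ZBP1 acts on, moved the other way, from 90.2, 91.5 and 85.8 CPM to 19.1, 16.7, 16.8, 16.9 and 20.02 CPM (-2.31, SE 0.08), and its substrate gene Mlkl was not called (-0.21). Eif2ak2, which encodes the kinase PKR, was higher without overlap (1.69, SE 0.07) but not called, and neither was Mavs (1.07). 

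Many genes of antigen presentation by MHC class I rose: 12 of 20 genes of the MHC class I and immunoproteasome list were called higher, at a median log2FC of 2.66, and none lower. B2m, the shared light chain, had 326, 306 and 324 CPM in the 3 progenitor libraries and 4241, 3930.1, 4183, 4207 and 4282 CPM in the 5 macrophage libraries (3.71, SE 0.04). H2-K1 (4.39, SE 0.04), the peptide transporter gene Tap1 (2.75, SE 0.06) and the immunoproteasome gene Psmb8 (2.94, SE 0.06) rose too. H2-D1 had 6384, 15866, 8917, 10276 and 8986 CPM in macrophages, with replicate 2 the highest (4.28, SE 0.25; 4.10 without it); class I genes resemble each other and their single values are uncertain. MHC class II stayed low: 3 of 5 tested genes rose, with Cd74, the invariant chain, at 18.9, 21.3, 19.6, 17.6 and 22.6 CPM in macrophages (2.72, SE 0.14), while H2-Aa, H2-Ab1, H2-Eb1 and Ciita, their transcriptional activator, were under the filter.

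Chemokine genes rose for 5 of 9 tested (Ccl2, Ccl5, Ccl6, Ccl7 and Cxcl2), and none fell. Ccl5 had 0.354, 0.384 and 0.267 CPM in the 3 progenitor libraries and 162, 160.5, 141, 159.7 and 170.3 CPM in the 5 macrophage libraries (8.57, SE 0.11), and Ccl2, which draws monocytes, 1.29, 1.33 and 1.12 CPM against 94.3, 89.9, 86.2, 92.0 and 92.3 CPM (6.10, SE 0.08). Ccl3 (-1.001), Ccl4 (-0.57) and Ccl9 (-1.12), abundant in both groups, were not called. Of 15 cytokine genes, 7 could be tested: Tnf (2.24, SE 0.14), Il27 (4.17, SE 0.28), Il15 (2.80, SE 0.19) and the antagonist gene Il1rn (3.42, SE 0.13) rose, and Ptgs2 (-2.43, SE 0.29) and Il12a fell, the latter to the lowest value in all 5 macrophage libraries, at least 10.3-fold lower. Tnf was not called with a pseudocount of 1, with quantile normalization or with libraries scaled to their sums. Il27, Ptgs2 and Il12a were not called with that pseudocount. Il6, Il1b, Il10 and Nos2 stayed under the filter.

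Many lysosomal genes rose. Of 43 tested, 28 rose and none fell (median log2FC 2.41), and the groups did not overlap for any of the 43, against 77.5% of all genes tested. Their summed level was 10332, 9993 and 9519 CPM in progenitors and 142169, 125124, 131182, 132074 and 126287 CPM in macrophages. Ctsd, an aspartic protease, had 1140.1, 1071 and 1098 CPM in the 3 progenitor libraries and 34609, 27999, 31108, 31388 and 28887 CPM in the 5 macrophage libraries (4.80, SE 0.07). The progenitor libraries lay far below all macrophage libraries. The protease gene Ctss (5.69, SE 0.06), the lipase gene Lipa (5.35, SE 0.05), Psap (5.02, SE 0.06), which activates sphingolipid breakdown, and the proton pump gene Atp6v0d2 (6.73, SE 0.17) rose as well. The neuraminidase gene Neu1 was the only one with a negative log2FC (-0.17, not called).

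The genes with the largest rise of mean CPM were Ftl1 and Fth1, the chains of the iron store ferritin, Lyz2, which encodes lysozyme, Ctsd, Ctsb, Gpnmb, Psap, Spp1, H2-D1 and Lipa. Lyz2, also a transcript of mature myeloid cells in general, had 201, 176 and 174 CPM in the 3 progenitor libraries and 32735, 29275, 30763, 28989.6 and 30184 CPM in the 5 macrophage libraries (7.37, SE 0.06). Ftl1 went from 11680.2, 10477 and 10026 CPM to 60261, 56785, 57576, 55641 and 55932 CPM (2.42, SE 0.06); quantile normalization, which gives the top gene of each library the same value, set its log2FC to 0. Fth1 had 1051, 782 and 958 CPM in progenitors and 14313, 26933, 19915, 22329 and 19127 CPM in macrophages (4.44, SE 0.18; 4.34 without macrophage replicate 2). Spp1, the secreted phosphoprotein osteopontin, had 193, 202 and 181 CPM in progenitors and 9807, 10455, 10059, 9605 and 10999 CPM in macrophages (5.73, SE 0.05), and the lysosomal glycoprotein gene Gpnmb rose by 5.32 (SE 0.08). Ferritin genes have many pseudogenes, so their values are uncertain.

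Scavenger and phagocytic receptor genes rose for 12 of 20 tested and fell for 1 (median log2FC 3.05). The Fc receptor genes Fcgr3 (3.99, SE 0.05) and Fcgr4 (5.48, SE 0.13), the apoptotic cell receptor gene Axl (5.10, SE 0.19) and the collectin gene Colec12 (8.73, SE 0.55) were among them. Tyro3, the relative of Axl, had 1.61, 1.36 and 1.92 CPM in progenitors and was at the lowest value in all 5 macrophage libraries, at least 11.2-fold lower. Cd163, the hemoglobin scavenger receptor gene, had 2.64, 2.74 and 1.92 CPM in the 3 progenitor libraries and 0.681, 0.738, 0.813, 0.71 and 0.839 CPM in the 5 macrophage libraries (-1.57, not called).

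Lipid genes went both ways. Of 19 tested, 9 rose and 4 fell (median log2FC 1.06). Genes of uptake, storage and efflux were among those that rose: the fatty acid receptor gene Cd36 (6.42, SE 0.29), the lipase gene Lpl (4.81, SE 0.06), the lipid droplet gene Plin2 (4.20, SE 0.04) and the cholesterol exporter genes Abca1 (4.09, SE 0.48) and Abcg1 (4.94, SE 0.04). The desaturase genes Scd1 (-6.45, SE 0.24) and Scd2 (-4.64, SE 0.15) and the fatty acid carrier genes Fabp4 (-2.17) and Fabp5 (-2.70) fell. Apoe, a lipid carrier of many macrophages, had 2.86, 2.61 and 4.19 CPM in the 3 progenitor libraries and 1.54, 4.26, 1.66, 2.19 and 1.53 CPM in the 5 macrophage libraries (-0.60, not called), and the groups overlapped. Of 22 sterol synthesis genes tested, none rose, 5 fell (Mvd, Idi1, Fdps and Stard4 among them) and all had negative log2FC (median -1.28). Fdps, an enzyme of the isoprenoid part of the pathway, had 504, 483 and 492 CPM in the 3 progenitor libraries and 54.5, 40.8, 49.6, 50.1 and 47.6 CPM in the 5 macrophage libraries (-3.35, SE 0.08).

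Complement and complement receptor genes rose for 8 of 12 tested, among them the receptor gene C3ar1 (7.13, SE 0.09) and C3 (3.45, SE 0.07). The classical pathway genes C1qa (0.27), C1qb (0.27) and C1qc (0.74) were not called. With libraries scaled to their sums, C1qa and C1qb had a log2FC of -0.10 each. In macrophages C1qa had 6.30, 5.62, 5.61, 6.90 and 5.17 CPM. Of 11 homeostatic microglia genes tested, 2 rose, Cx3cr1 among them, against 11.7% called higher over all genes tested, at a median log2FC of 0.53. P2ry12, a purine receptor gene, had 14.1, 7.68 and 14.1 CPM in progenitors, which overlapped with the macrophages (0.54, not called). Tmem119, a membrane protein used to mark microglia, had 23.1, 22.2 and 21.0 CPM in the 3 progenitor libraries and 36.0, 42.5, 38.5, 31.8 and 38.0 CPM in the 5 macrophage libraries (0.75, not called).

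Many genes of the cell cycle fell. All 30 genes of the mitosis and G2/M list had lower values in all 5 macrophage libraries than in any progenitor library, against 77.5% of all genes tested without overlap; 24 were called lower and none higher, at a median log2FC of -2.49. Their summed level went from 5460.5, 5382 and 5149 CPM to 914, 851, 885, 898 and 892 CPM. Plk1, a kinase of mitotic entry, had 303, 292 and 279 CPM in the 3 progenitor libraries and 21.1, 21.7, 20.2, 24.2 and 22.97 CPM in the 5 macrophage libraries (-3.72, SE 0.07). Cyclin B1 (-3.20, SE 0.07 for Ccnb1) and the anaphase activator gene Cdc20 (-3.72, SE 0.13) fell too. Mki67 (-1.42) and Top2a (-1.69) were not called, and Mki67 stayed at 36.4, 28.3, 37.9, 38.2 and 33.3 CPM in macrophages. Of 36 DNA replication and S phase genes, 14 fell and 1 rose (median -1.89). Rrm2, a subunit of the enzyme that makes deoxynucleotides, had 1516, 1572 and 1521 CPM in the 3 progenitor libraries and 177, 211, 193, 183 and 214 CPM in the 5 macrophage libraries (-2.98, SE 0.06). E2f1, a factor that drives entry into S phase, went the other way, from 8.30, 8.42 and 7.00 CPM to 41.7, 37.6, 37.1, 38.1 and 38.7 CPM (2.28, SE 0.08); with libraries scaled to their sums its rise was not called and 24 genes of the list fell.

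Inhibitors of the cycle and p53 targets were called higher for 3 of 19 tested, against 11.7% of all genes tested, Mdm2 (2.62, SE 0.04), which restrains p53, Trp53inp1 (3.83, SE 0.29) and Fas (2.62, SE 0.12), and lower for none. Cdkn1a, the gene of p21, had 96.8, 102 and 99.2 CPM in the 3 progenitor libraries and 312, 340.0, 342, 319 and 364 CPM in the 5 macrophage libraries; macrophages were higher without overlap, at a log2FC of 1.75 that was not called.

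Ribosome biogenesis genes fell for 17 of 24 tested, with no overlap for any of the 24, against 77.5% without overlap over all genes tested (median log2FC -2.21). The nucleolin gene Ncl had 2576, 2633 and 2371 CPM in the 3 progenitor libraries and 286, 255, 277, 262 and 286 CPM in the 5 macrophage libraries (-3.21, SE 0.05), and Npm1 (-3.18, SE 0.05), a nucleolar chaperone, and Nop58 (-3.20, SE 0.05), a core protein of box C/D ribonucleoproteins, fell alike. Of 15 integrated stress response genes, 2 rose and 5 fell, against 11.7% called higher and 7.61% called lower over all genes tested. Atf3 had 2.85, 3.53 and 3.97 CPM in progenitors and 359, 367, 374, 414 and 359 CPM in macrophages (6.74, SE 0.10), and Ddit3, which encodes CHOP, rose by 2.76 (SE 0.07). The genes that fell were mostly enzymes of serine and one-carbon metabolism: Phgdh (-4.35, SE 0.04), Psat1 (-3.76, SE 0.04), Shmt2 (-3.80, SE 0.07) and Mthfd2 (-2.01, SE 0.05), with Ddit4, an inhibitor of mTORC1 (-2.17, SE 0.19). Mthfd2 was not called without progenitor replicate 2 (-1.99) or macrophage replicate 3 (-1.99) or 4 (-1.99). Atf4, the central factor of the response, had -1.44 and Chac1 -1.69, neither called. None of 34 oxidative phosphorylation genes was called in either direction (median log2FC -0.77), although in limma the adjusted p was below 0.05 for 29 of them and the unadjusted p for 30; the adjusted p was below 0.05 for 81.3% of all genes tested.

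The 10 reference genes often used for scaling held no DEG in limma, with an adjusted p below 0.05 for 7 (81.3% over all genes tested) and an unadjusted p below it for 8. Gapdh had 1867, 1893 and 1787 CPM in the 3 progenitor libraries and 752, 674, 679.6, 689.7 and 686 CPM in the 5 macrophage libraries (-1.41) and Actb a log2FC of 0.15. The value for Actb was negative with libraries scaled to their sums or quantile normalized. Among the 10 largest falls of mean CPM were those of Ptma, Mpo, Ncl, Npm1, Hspd1, Set, Ms4a3, Rrm2 and Tuba1b. Ptma, a small acidic nuclear protein of growing cells, went from 3606, 3512 and 3462 CPM to 615, 604, 629.7, 607 and 633 CPM (-2.51, SE 0.03). Set, a histone chaperone (-4.08, SE 0.08), the mitochondrial chaperonin gene Hspd1 (-2.62, SE 0.04) and the tubulin gene Tuba1b (-2.23, SE 0.05) fell as well.

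By log2FC, the 10 largest rises were those of Anpep, Apol9a, Cmpk2, Ifit3, Ifit1, I830012O16Rik, Gp49a, Oasl2, Usp18 and Ddx60. Anpep, an aminopeptidase on the surface of myeloid cells, had 0.381, 0.518 and 0.0428 CPM in the 3 progenitor libraries and 375, 303, 318, 352 and 331 CPM in the 5 macrophage libraries (9.99, SE 0.41). Apol9a (9.64, SE 0.17) belongs to a family of near-identical apolipoprotein L genes, and Gp49a (9.18, SE 0.15), an immunoglobulin-like receptor, has a close copy too, so both values are uncertain. The 10 largest falls were those of Gm9531, Gm2016, Ms4a3, Gm5662, Muc13, Prtn3, Mpo, Ctsg, Elane and Cnn3. Muc13, a transmembrane mucin, had 694, 698 and 665 CPM in the 3 progenitor libraries and 0.778, 0.64, 1.06, 0.869 and 0.746 CPM in the 5 macrophage libraries (-9.58, SE 0.14), and Cnn3, an actin-binding calponin, 98.6, 85.9 and 116 CPM against 0.233, 0.443, 0.0611, 0.241 and 0 CPM (-8.74, SE 0.52). Gm9531 (-10.19), Gm2016 (-10.18) and Gm5662 (-9.63) are predicted genes with related sequences and uncertain values; 115 DEGs carried a predicted gene, pseudogene or Riken name.

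The NTC line was compared to ask where the change from progenitor to macrophage in the sgRNA 2 line differed from that of cells with a non-targeting guide. ISGs such as Ifit1 had a larger change in the sgRNA 2 line (difference 5.15, SE 0.28). Genes of proliferation such as Plk1 (3.30, SE 0.30) and of neutrophil granules such as Mpo (7.57, SE 0.43) had a less negative one. Some genes of mature macrophages such as Cx3cr1 (-3.94, SE 0.32) and of classical complement such as C1qa (-5.02, SE 0.28) had a lower one. For 755 of the 10698 genes tested within the sgRNA 2 line (7.06%) the 2 changes differed, 558 toward a higher (5.22%) and 197 toward a lower value (1.84%) in that line. With 429 genes more that passed the filter through NTC libraries alone, of which 130 were called, these were 885 of 11127 (7.95%), 621 higher (5.58%) and 264 lower (2.37%), with a median difference of 0.04. This is an interaction test over 14 libraries (5 and 3 of sgRNA 2, 3 and 3 of NTC) on log2(CPM + 0.1) after all libraries were put on a common scale, since the sgRNA 2 libraries share a lowest value that the other lines do not have, taken to mark a normalization of their own. Line, library set and normalization set cannot be told apart in these differences, and NTC macrophage replicate 2, whose library name ends in Redo, had a lowest value unlike that of all others. Where a group is at 0 the size of a difference depends on the 0.1 CPM added.

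Of the study's 20 ISGs, 19 differed toward higher values and none toward lower (median difference 3.78); their median change was 7.10 in the sgRNA 2 line and 2.59 in NTC. The exception was Stat2 (1.70), which was called without NTC progenitor replicate 2 (2.19). Ifit1 had 16.6, 13.8 and 14.3 CPM in NTC macrophages and 0.419, 1.00 and 0.822 CPM in NTC progenitors, against 1026, 1073, 1005, 983 and 1126 CPM in sgRNA 2 macrophages on the same scale (limma adjusted p = 7.18e-09). All sgRNA 2 macrophage libraries lay above all NTC macrophage libraries. Cxcl10, which was not a DEG within the line, was among those that differed (3.16, SE 0.30); its change in NTC was -2.04. Of the other 42 ISGs tested, 25 differed toward higher and none toward lower values, at a median of 2.79. The 5 largest positive differences were those of Apol9a (9.22, SE 0.33), the granule protein gene Ngp (8.15, SE 0.36), Cmpk2 (8.05, SE 0.49) and the interferon-inducible GTPase genes Iigp1 (7.69, SE 0.84) and Tgtp2 (7.65, SE 0.75). Ngp changed by 0.58 in the sgRNA 2 line, where it was not a DEG, and by -7.57 in NTC. Ifnb1 differed too (3.49, SE 0.50), with 0, 0 and 0.112 CPM in NTC macrophages.

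Proliferation genes had negative median changes in both lines. Of 30 mitosis and G2/M genes, 25 differed toward higher values, with median changes in the sgRNA 2 line of -2.51 and -5.54 in NTC, and so did 14 of 36 replication and S phase genes (-1.90 and -3.71). Mki67, the proliferation marker, had 36.1, 27.4, 37.2, 36.9 and 32.7 CPM in sgRNA 2 macrophages and 4.69, 4.29 and 4.22 CPM in NTC macrophages (difference 3.51, SE 0.19). The 2 groups of macrophages did not overlap, and the progenitors had 82.7, 102 and 90.9 CPM and, in NTC, 165, 114 and 142 CPM. For ribosome biogenesis none of 24 genes was called in limma (adjusted p below 0.05 for 10, unadjusted p for 13), with median changes in the sgRNA 2 line of -2.23 and, in NTC, -2.24.

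Of 12 neutrophil granule genes that passed the filter in the sgRNA 2 line, 10 differed toward higher values and none toward lower; 5 more passed it through NTC libraries alone and are not counted. Mpo had 2372, 2099.9 and 2602 CPM in sgRNA 2 progenitors and 24342, 17288 and 15923 CPM in NTC progenitors, and 4.40, 3.72, 3.29, 3.24 and 4.67 CPM against 0.227, 0 and 0.0385 CPM in macrophages. The sgRNA 2 line was lower in every progenitor library and higher in every macrophage library, and the changes were -9.23 and -16.80. Hemoglobin genes, at most 0.648 CPM in any sgRNA 2 library, were found in NTC progenitors (Hba-a1 252, 195 and 153 CPM) and in NTC macrophage replicate 2, but not in the other NTC macrophages (Hba-a1 0, 92.1 and 0 CPM). They passed the filter through NTC libraries alone, so that their differences are those of the NTC line's own change. The difference for Hba-a1 (6.81, SE 2.42) was not called in 10 of 14 fits that left out 1 library, and was 10.09 without NTC macrophage replicate 2. The part of erythroid cells in the other differences was not tested; without that replicate, 880 genes differed, against 885 with it.

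Of the 13 macrophage identity genes, 4 differed toward lower values in the sgRNA 2 line, Cx3cr1, Aif1 (-3.01, SE 0.30), Mertk (-2.53, SE 0.43) and Csf1r (-2.13, SE 0.36), and none toward higher. Csf1r had 1184, 1278, 1334, 1220.0 and 1404 CPM in sgRNA 2 and 3738, 3554 and 3201 CPM in NTC macrophages, and was not called without NTC progenitor replicate 2 (-1.73). Cx3cr1 had 246, 299, 302, 243 and 318 CPM in sgRNA 2 macrophages and 207, 263 and 217 CPM in NTC macrophages, which overlapped, and 15.9, 13.4 and 13.6 CPM against 1.09, 0.386 and 0.666 CPM in progenitors, which did not. Maf, a factor of resident macrophages, reached 4.00, 2.71, 2.74, 3.38 and 3.50 CPM in sgRNA 2 and 129.7, 95.8 and 110.2 CPM in NTC macrophages (-6.38, SE 0.26). C1qb (-4.49, SE 0.30) and C1qc (-4.94, SE 0.48) differed toward lower values like C1qa, and so did 6 of 11 homeostatic microglia genes. Of 12 complement genes in all, 5 differed toward lower values and 3 toward higher, C3 (3.13, SE 0.27) among the latter, at a median of -0.44. Monocyte genes went both ways too: of 9 that passed the filter in the sgRNA 2 line, 3 differed toward higher values, Plac8 (6.03, SE 0.42) among them, and 3 toward lower. Among these 3, F13a1 changed by -3.66 in the sgRNA 2 line and by 2.34 in NTC (difference -6.00, SE 0.17). Among the 5 largest negative differences were those of Cd5l (-8.82, SE 0.39), a secreted macrophage protein that passed the filter through NTC libraries alone, Tyrobp (-7.93, SE 1.33), Pmp22 (-7.72, SE 0.31) and the mRNA decay factor gene Zfp36l1 (-7.11, SE 0.36). Tyrobp was listed at 0 in every sgRNA 2 library and had 57.2, 2.08 and 117 CPM in NTC macrophages; without NTC macrophage replicate 2 its difference was -9.68. Of 7 tested genes at the lowest value in all 8 sgRNA 2 libraries, 5 were called. Such zeros may come from the transcript index or annotation used for those libraries, which was not tested, so these values are not read as differences between the lines.

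**Figure D4:**
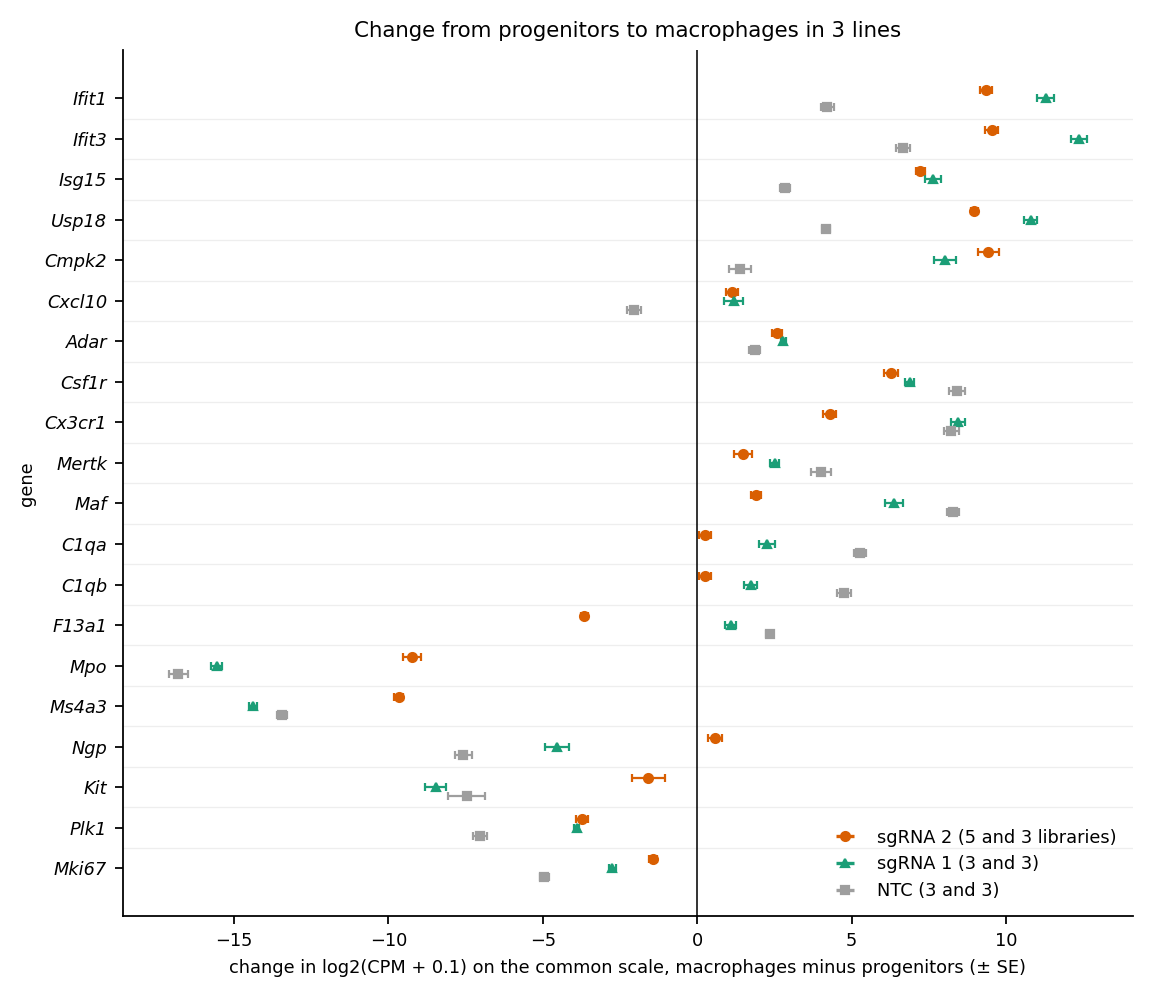
Macrophage minus progenitor change on the common log2 scale (x axis) in the sgRNA 2 (orange), sgRNA 1 (green) and NTC (grey) lines for 20 genes (y axis), with bars for the SE of each fit. The ISGs shown other than Adar had a larger change in the sgRNA 2 line than in NTC and Plk1 and Mki67 a less negative one, and Cx3cr1, Maf and Mpo differed between sgRNA 2 and each of the other lines.

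The sgRNA 1 line was compared to ask where the same change differed between the 2 Adar1 KO lines. The granule gene Mpo (6.33, SE 0.24) and the receptor gene Kit (6.88, SE 0.46) differed toward higher values in the sgRNA 2 line, and Cx3cr1 (-4.15, SE 0.32) and Maf (-4.47, SE 0.40) toward lower ones, while most ISGs were not called. Of the 10698 genes tested within the sgRNA 2 line, 267 differed (2.5%), 136 toward a higher (1.27%) and 131 toward a lower value (1.22%) in that line. With 419 genes more that passed the filter through sgRNA 1 libraries alone, of which 147 were called, these were 414 of 11117 (3.72%), 210 higher (1.89%) and 204 lower (1.84%), with a median difference of -0.04. The test was the same, over 5 and 3 libraries of sgRNA 2 and 3 and 3 of sgRNA 1, and line and library set again cannot be told apart. 

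Of the study's 20 ISGs, 1 differed toward higher values, Oas1g (3.48, SE 0.23), and 3 toward lower ones, Ifit3 (-2.82, SE 0.35), Ccl2 (-2.54, SE 0.22) and Ifi44 (-2.16, SE 0.43; -1.71 and not called without sgRNA 1 macrophage replicate 1). Reads of Oas1g and of Ifit3 may be split with near-identical copies, so their differences are uncertain. For Oas1a, the copy of Oas1g, the difference was 0.36 and was not called. The median changes of the 20 ISGs were 7.10 in the sgRNA 2 line and 8.27 in sgRNA 1. Of the other 42 ISGs tested, 1 differed toward a higher and 3 toward a lower value (median difference -0.32). The difference for Ifit1 was not called (-1.92, SE 0.37), with 1026, 1073, 1005, 983 and 1126 CPM in sgRNA 2 macrophages and 1494, 1209 and 630.3 CPM in sgRNA 1 macrophages. It was called without sgRNA 1 progenitor replicate 1 (-2.17), sgRNA 1 macrophage replicate 3 (-2.29) or sgRNA 2 progenitor replicate 2 (-2.02). No gene of mitosis and G2/M was called in limma, with an adjusted p below 0.05 for 21 of 30 and an unadjusted p below it for 24, at a median difference of 0.52. Of 36 replication and S phase genes none was called either (17 and 24; median 0.42). Adar was not called by the same test (-0.21, SE 0.10, limma adjusted p = 0.131).

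Neutrophil granule genes differed here too, 6 of the 12 that passed the filter in the sgRNA 2 line toward higher values and none toward lower, among them Mpo, Ngp (5.12, SE 0.52) and Ms4a3 (4.73, SE 0.17). The 5 largest positive differences were those of the hemoglobin genes Hba-a2 (10.58, SE 0.47), Hbb-bs (10.55, SE 0.46), Hba-a1 (8.97, SE 0.54) and Hbb-bt (8.06, SE 0.48), near-identical in pairs and so uncertain singly, and of Kit. Kit had 6.83, 3.38 and 5.13 CPM in sgRNA 2 and 45.3, 29.6 and 32.7 CPM in sgRNA 1 progenitors, and 1.46, 1.88, 1.21, 2.84 and 0.984 CPM and 0, 0 and 0 CPM in macrophages. Hemoglobin genes were in sgRNA 1 progenitors (Hba-a1 199, 247 and 249 CPM) and hardly in sgRNA 1 macrophages (0.241, 0.0933 and 0.15 CPM). They passed the filter through sgRNA 1 libraries alone and hardly changed in the sgRNA 2 line (Hba-a2 0.35), so that their differences are those of the sgRNA 1 line's own change. Of 13 macrophage identity genes 2 differed toward lower values, Cx3cr1 and Aif1 (-2.66, SE 0.35), and none toward higher (median -1.04). Progenitor levels enter these differences of changes as well as macrophage levels, so a lower value need not mean lower expression in macrophages. Of the myeloid transcription factor genes that passed the filter in the sgRNA 2 line, 2 of 24 differed toward lower values, Maf among them, and none toward higher values (median 0.26). Of the 9 monocyte genes, 3 differed toward lower values, F13a1 (-4.74, SE 0.25) among them, and none toward higher. The sgRNA 2 libraries serve in the tests against both lines, which are therefore not independent. The 5 largest negative differences were those of Tyrobp (-10.55, SE 0.63), the predicted genes Gm12918 (-9.52, SE 0.52) and Gm14303 (-7.62, SE 0.61) and the ribosomal pseudogenes Rpl10-ps1 (-8.25, SE 0.54) and Rps13-ps2 (-7.74, SE 0.41). All 5 were listed at 0 in every sgRNA 2 library and in the sgRNA 1 progenitors, and 65 of the 204 negative differences carried predicted gene, pseudogene or Riken names. All 16 tested genes at the lowest value in every sgRNA 2 library were called; here too the index or annotation used may have set these zeros, and the values are not read as differences between the lines.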

How the data were processed

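Bulk RNA sequencing of 20 libraries from 6 groups (sgRNA 2, sgRNA 1 and NTC, progenitors and macrophages) was used out of 92. Per their methods, the authors aligned reads with kallisto (version 0.46.0), summarized them to genes with tximport and normalized them by TMM in edgeR. The deposited values are log2 CPM of the library, with a small offset. The libraries sharing 1 lowest value were taken as normalized together, giving 3 sets. CPM and effective library size were rebuilt from that lowest value and the step of 1 count. The table holds 29957 entries, of which 1 without a gene name (0.0028% to 0.0207% of each library) was left out.

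Macrophages and progenitors of sgRNA 2 were compared on the deposited log2 values with limma 3.58.1 (R 4.3.3; moderated, with a trend of the variance on the mean), over genes that exceeded 1 CPM in 3 or more libraries. Adjusted p-values are Benjamini-Hochberg over all genes tested. DEGs have a log2FC of 2 or more, or -2 or less, with an adjusted p below 0.05. Differences of changes between lines were interaction terms of the same model on log2(CPM + 0.1), after a trimmed mean of log ratios (trims 0.3 and 0.05) put all libraries on 1 scale; their CPM therefore differ slightly from the deposited ones. The fits were tested on simulated data. Counts were not used, since they are not whole numbers.

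Members and the 32 gene lists were chosen with earlier results of these data known. Named genes are Adar, list members, the 10 largest log2FC and the 10 largest changes of mean CPM in each direction, and the 5 largest differences of changes in each direction. For the largest log2FC, the groups had to be separated, with over 3 counts in each library of the higher group. The genes named of each list were picked after their values were seen. Promoter sequences are from RefSeq (GRCm38.p6), matched by symbol. Alternatives were another pseudocount, filter, fold limit, scaling, weighting or variance model, the replicate number as a block, fewer libraries and a joint fit; scaling to the summed CPM and counting over the genes tested within the sgRNA 2 line were added after seeing the data. No correction for batch was made, since the labels name no batch; the library name of NTC macrophage replicate 2 ends in Redo, with nothing further said of it. Some list members and some genes that the naming rule picks are not reported here.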

Additional observations from a re-analysis of the deposited data

Results flagged for a closer look

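Of 180 genes named, 9 had 1 macrophage library of the sgRNA 2 line apart from the other 4 by a gap past Dixon's limit, against 6.53% of all genes tested and about 1 of 20 groups by chance alone, so nothing is read from the 9 values. In replicate 1 they were the proton pump gene Atp6v0d2 at 183 CPM, the protease gene Ctsb at 26594 CPM, the glycolysis gene Gapdh at 752 CPM and the receptor gene Gp49a at 494 CPM, all higher than in the other 4. In replicate 2 the MHC light chain gene B2m (3930.1 CPM) and the antiviral enzyme gene Rsad2 (185 CPM) were lower than in the other 4. In replicate 4 the transcription factor gene Atf3 (414 CPM) and the predicted gene Gm9531 (0.112 CPM) were higher and the ribonucleoprotein gene Nop58 (46.4 CPM) was lower.

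The macrophage minus progenitor change differed between the sgRNA 2 and NTC lines for 885 genes by limma's interaction test, of which 130 had passed the filter through NTC libraries alone, leaving 755. Of the ISGs and interferon genes named, Apol9a (9.22), Cmpk2 (8.05), Iigp1 (7.69), Tgtp2 (7.65), Ifit1 (5.15), Ifnb1 (3.49) and Cxcl10 (3.16) differed toward higher values in the sgRNA 2 line. So did the granule genes Ngp (8.15) and Mpo (7.57), the mitosis genes Plk1 (3.30) and Mki67 (3.51), the complement gene C3 (3.13) and the monocyte gene Plac8 (6.03). For Ngp most of the difference was the NTC line's own change (-7.57, against 0.58 in the sgRNA 2 line). The hemoglobin gene Hba-a1 (6.81) passed the filter through NTC libraries alone and was not called in 10 of 14 fits that left out 1 library (5.17 to 10.09). Of the macrophage and complement genes named, these differed toward lower values: Cd5l (-8.82), which also passed the filter through NTC libraries alone, Maf (-6.38), C1qa (-5.02), C1qc (-4.94), C1qb (-4.49), Cx3cr1 (-3.94), Aif1 (-3.01), Mertk (-2.53) and Csf1r (-2.13). Pmp22 (-7.72), Zfp36l1 (-7.11) and the coagulation factor gene F13a1 (-6.00) did too. For Cx3cr1 the macrophages of the sgRNA 2 and NTC lines overlapped and the progenitors did not. The adaptor gene Tyrobp (-7.93) was listed at 0 in every sgRNA 2 library, which may come from the index or annotation used for them and was not tested, so its value is not read as a difference between the lines.

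Against the sgRNA 1 line the change differed for 414 genes by the same test, of which 147 had passed the filter through sgRNA 1 libraries alone, leaving 267. Hemoglobin genes differed toward higher values, Hba-a2 (10.58), Hbb-bs (10.55), Hba-a1 (8.97) and Hbb-bt (8.06); they passed the filter through sgRNA 1 libraries alone, and their differences are those of that line's own change. Kit (6.88) differed in the same direction, as did the granule and progenitor genes Mpo (6.33), Ngp (5.12) and Ms4a3 (4.73). Of the study's 20 ISGs, Oas1g (3.48) differed toward a higher value and Ifit3 (-2.82), Ccl2 (-2.54) and Ifi44 (-2.16) toward lower ones. Oas1g and Ifit3 have near-identical copies, so their values are uncertain. The macrophage and monocyte genes Cx3cr1 (-4.15), Aif1 (-2.66), Maf (-4.47) and F13a1 (-4.74) also differed toward lower values. Progenitor levels enter these differences of changes as well as macrophage levels. The entries Tyrobp (-10.55), Gm12918 (-9.52), Gm14303 (-7.62), Rpl10-ps1 (-8.25) and Rps13-ps2 (-7.74) were listed at 0 in every sgRNA 2 library, and with the same doubt about index or annotation are not read as differences between the lines.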

How the results depend on the processing

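The 2064 DEGs between sgRNA 2 macrophages and progenitors numbered 1531 to 2344 under other filters (mean CPM above 5; none), 1552 with a pseudocount of 1 and 2019 to 2283 under other scalings, of which scaling to the summed CPM was chosen after seeing the data. Library weights gave 2067, no variance trend 2058, macrophage replicates 1 to 3 alone 2074 and the joint fit of 6 groups 2057. Leaving out each library in turn gave 2052 to 2077. With a log2FC limit of 1 there were 4915. The 885 genes that differed from NTC numbered 899 on the deposited values and 860 to 925 with each library left out; the pseudocount of 1 gave 488 and the log2FC limit of 1 gave 2425. The 414 that differed from sgRNA 1 numbered 419 and 402 to 446, and 173 and 1358. Counted over the genes that passed the filter in the sgRNA 2 line, a choice made after seeing the data, the 885 and 414 were 755 and 267. The larger pseudocount shrinks log2FC of genes with low CPM and the lower limit admits smaller ones.

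With the replicate number as a block, 2074 genes were called in the first comparison and 846 against NTC. Progenitors and macrophages of the same number did not deviate together in sgRNA 2 (r = -0.05, -0.12 and -0.07) or throughout in NTC (0.03, -0.09 and 0.16), and not every library correlated best with its own number, so the numbers are not taken to pair the libraries. The block was not run against sgRNA 1.

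Of 180 genes named in the first comparison, 142 were DEGs; 13 of these were lost with a pseudocount of 1, 6 with quantile normalization, 8 with scaling to the sum, and 2 each (Ccr2 and Lmo2) with median centring, the replicate block, macrophage replicates 1 to 3 alone and the joint fit, and the log2FC limit of 1 added 23. Tnf was lost under the first 3 of these settings, and Runx3, Tyro3, Flt3, Ptgs2, Ddit4, Il12a, Il27 and Ifnb1 with the pseudocount alone. Signs turned for Actb (-1.85 with quantile normalization, -0.22 with scaling to the sum), C1qa (-0.10) and C1qb (-0.10) with scaling to the sum; Ftl1 became 0.00 with quantile normalization. Of 27 named genes that differed from NTC, 1 was lost with a pseudocount of 1 and 1 with the block. Of 21 that differed from sgRNA 1, 2 were lost with a pseudocount of 1.

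At an effective size of 17.2 to 28.5 M counts a library, an absent gene is known only to lie under about 3 counts. The replicates may be separate libraries of 1 culture, so their spread (median SD 0.12 in progenitors and 0.14 in macrophages on the log2 scale) may be technical. The sgRNA 2 libraries share a lowest value that no other line has, taken to mark a normalization set of their own, and line, guide and library set cannot be told apart. Macrophages differ from progenitors in medium, growth factor and estrogen at once. The scaling between groups cannot be checked without spiked RNA. The values used here do not measure protein, editing of RNA or secretion, and each line is a single pool of edited cells.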
